A study of Mus musculus with 12 samples.

Results

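Of the genes measured, 10 genes of striated muscle were followed through thymic epithelial cells (TEC) of mice with and without MHC class II. They were listed by name: *Chrna1*, *Ckm*, *Acta1*, *Actc1*, *Ttn*, *Myh6*, *Myh7*, *Tnnt2*, *Tnnt3* and *Mb*. All 10 were found by symbol among the 34547 genes of the deposited libraries and in the deposited table of regularized log2 (rlog) values. Each encodes a protein of skeletal muscle, heart or both, and their transcripts in the thymus serve as examples of tissue-restricted self-antigens. RNA-seq was available for 12 libraries in 4 groups of 3: WT cortical TEC (cTEC), Aβ0/0 cTEC, WT medullary TEC (mTEC) and Aβ0/0 mTEC. WT mice were C57BL/6, and Aβ0/0 mice carry a germline disruption of *H2-Ab1*, the gene of the MHC class II β chain. The loss is therefore present in every cell of the mouse and not in TEC alone. Thymi of 5 to 10 mice aged 4 to 6 weeks were pooled for each sorting, so that a library stands for a pool and not for one animal. Sorted cTEC were Epcam+CD45-Ly51+UEA1- and sorted mTEC were Epcam+CD45-Ly51-UEA1+.

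Medullary TEC transcribe genes that otherwise belong to single peripheral tissues, and the peptides they display help to delete or divert developing T cells that recognize them. Aire and Fezf2 are transcriptional regulators of this program, and signals from CD4+ thymocytes that recognize MHC class II favor the maturation of mTEC. Muscle proteins have a special place among these self-antigens, because the α1 subunit of the muscle acetylcholine receptor is the main target of autoantibodies in myasthenia gravis and cardiac myosin is a target in autoimmune myocarditis. Muscle-like cells in the thymic medulla have been known to histologists for a long time as myoid cells, and Myog is the myogenic factor that marks muscle-like mTEC.

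Library totals ranged from 21.7 to 36.1 M estimated counts. CPM values below are counts of a gene scaled to effective library sizes, with TMM factors over all 12 libraries, and a level of 3 counts corresponded to between 0.0826 and 0.128 CPM. Intervals of pooled ratios and such limits cover counting error alone, while edgeR's intervals carry the spread among libraries. The targeted gene *H2-Ab1* lay between 9019 and 11189.6 CPM in WT mTEC and between 1899 and 3851 CPM in Aβ0/0 mTEC. In cTEC it lay between 6504 and 10033 CPM in WT and between 2157 and 3715 CPM in Aβ0/0, so that the genotypes did not overlap in either subset. The log2 fold change passed the test in mTEC (1.81, adjusted p = 0.0352, edgeR) and not in cTEC (1.47, adjusted p = 0.695, edgeR). Counts per gene do not show which exons the remaining transcripts hold. The numbers of sorted mTEC that the study gives did not overlap between the genotypes, so genotype and cell number cannot be told apart in mTEC.

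Promoter sequences from RefSeq (build GRCm38.p6, 250 bases before to 50 bases after the start of transcription) were found for 9 of the 10 genes. The sequences of *Acta1*, *Actc1*, *Ckm* and *Ttn* are shown because these 4 genes were higher in mTEC than in cTEC in both genotypes. They lie at chr8:123894726-123895025 (reverse strand), chr2:114052826-114053125 (reverse), chr7:19410844-19411143 (forward) and chr2:76982498-76982797 (reverse). Capitals mark E-boxes (CANNTG), the class of element that myogenic factors such as Myog and Myod1 bind.
*Acta1*: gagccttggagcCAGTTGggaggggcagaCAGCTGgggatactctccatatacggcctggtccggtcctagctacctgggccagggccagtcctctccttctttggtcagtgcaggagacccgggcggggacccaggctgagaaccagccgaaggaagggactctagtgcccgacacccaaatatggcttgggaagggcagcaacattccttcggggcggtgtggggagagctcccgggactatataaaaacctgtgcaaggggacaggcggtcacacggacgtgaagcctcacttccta
*Actc1*: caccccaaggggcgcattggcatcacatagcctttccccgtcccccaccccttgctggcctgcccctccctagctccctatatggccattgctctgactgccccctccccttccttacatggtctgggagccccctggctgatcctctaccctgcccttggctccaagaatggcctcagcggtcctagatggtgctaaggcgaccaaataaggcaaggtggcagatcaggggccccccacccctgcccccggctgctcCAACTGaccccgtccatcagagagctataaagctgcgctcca
*Ckm*: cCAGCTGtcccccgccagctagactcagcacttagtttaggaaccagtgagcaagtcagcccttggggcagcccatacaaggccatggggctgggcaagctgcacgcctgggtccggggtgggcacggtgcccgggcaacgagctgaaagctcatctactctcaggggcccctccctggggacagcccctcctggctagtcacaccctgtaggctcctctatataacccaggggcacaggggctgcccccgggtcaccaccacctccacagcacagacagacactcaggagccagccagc
*Ttn*: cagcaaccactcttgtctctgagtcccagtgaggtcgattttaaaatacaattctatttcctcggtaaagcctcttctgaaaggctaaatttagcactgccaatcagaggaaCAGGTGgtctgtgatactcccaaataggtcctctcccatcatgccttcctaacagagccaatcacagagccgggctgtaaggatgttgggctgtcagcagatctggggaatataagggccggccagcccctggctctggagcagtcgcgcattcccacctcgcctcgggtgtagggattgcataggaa

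All 9 genes with an entry held at least 1 E-box, but so did 72.3% of all 32851 promoters of this length, and the motif reads alike on both strands. The E-box CAGCTG was present in 6 of the 13 entries of these genes, in 5 genes, against 16.3% of all promoter entries. *Acta1* held it at position -221 from the start of transcription, *Ckm* at -249, *Chrna1* at -92 and -44 and *Tnnt2* at -223 and -157. It was also found in overlapping entries of *Mb*, which hold the same site, so that site was counted more than once. A CArG box, the element of serum response factor, was present in the promoters of both actin genes, at -73 in *Acta1* and at -47 in *Actc1*, and in 1.63% of all promoters. An element of the MEF2 kind was found at -166 in *Ttn* and in 0.557% of all promoters. These matches describe letters and not bound sites. Positions count from the start of transcription set in each entry, which need not be the start of the gene's span and was not tested.

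Per unit of length, the 10 transcripts spanned more than 2 orders of magnitude in WT mTEC. TPM, which corrects for transcript length and allows genes to be compared, averaged 91.0 ± 20.5 (SD, n = 3) for *Acta1*, the highest of the 10. *Actc1* at 47.0 ± 10.4 and *Ckm* at 41.8 ± 15.7 (SD, n = 3) came next and overlapped each other, while both lay under every *Acta1* value. *Tnnt2*, *Tnnt3*, *Chrna1*, *Ttn* and *Mb* followed with means of 20.6, 13.0, 9.19, 8.72 and 7.69 TPM, each overlapping its neighbor. *Myh7* at 0.68 ± 0.579 and *Myh6* at 0.326 ± 0.0563 TPM (SD, n = 3) stood well under the other 8. In Aβ0/0 mTEC the order was the same at the top, with *Acta1* at 81.6 ± 6.49, *Actc1* at 45.2 ± 30.3, *Ckm* at 37.2 ± 8.57 and *Tnnt2* at 19.1 ± 9.39 TPM (SD, n = 3), and *Ttn* at 17.2 ± 8.27 TPM came next. In cTEC of either genotype *Tnnt2* had the highest mean, 3.59 ± 3.84 TPM in WT and 6.17 ± 2.53 in Aβ0/0 (SD, n = 3), and both sarcomeric actins were under 0.3 TPM in every library.

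**Figure D1:**
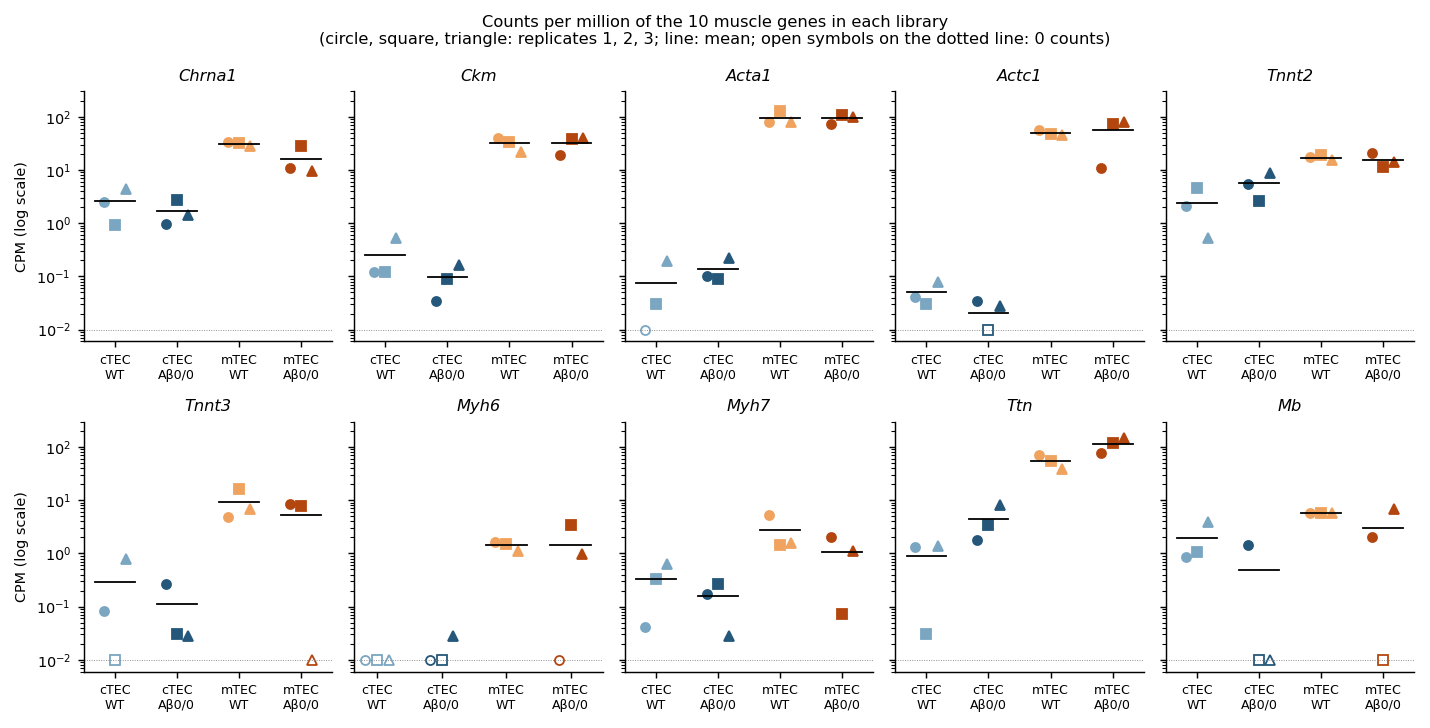
Level of each gene in every library as CPM on a log axis, with replicates 1, 2 and 3 as circle, square and triangle, the group mean as a line where it is over 0.01, and open symbols on the dotted line for libraries with 0 counts. *Ckm*, *Acta1* and *Actc1* in mTEC lie far above cTEC in both genotypes, and *Myh6*, *Mb* and *Tnnt3* each have 0 counts in a different Aβ0/0 mTEC library.

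*Chrna1* (ENSMUSG00000027107, chr2:73563215-73580338, reverse strand, GRCm38) encodes the α1 subunit of the muscle acetylcholine receptor, which binds acetylcholine at the neuromuscular endplate. It was measured at 34.1, 32.1 and 27.8 CPM in WT mTEC and at 10.8, 27.8 and 9.8 CPM in Aβ0/0 mTEC. Aβ0/0 replicate 2 was thus level with the lowest WT library, and the other two Aβ0/0 libraries were well under it. In cTEC the values were 2.47, 0.945 and 4.39 CPM in WT and 0.984, 2.72 and 1.43 CPM in Aβ0/0, all under every mTEC library. The genotype difference in mTEC, a log2 fold change of 0.95 (SE 0.45, 95% interval -0.12 to 2.02), did not pass the threshold (adjusted p = 0.396, edgeR). The difference between subsets did so in WT, where *Chrna1* was higher in mTEC by 3.59 on the log2 scale (SE 0.56, adjusted p = 0.00383, edgeR). In Aβ0/0 the same difference was 3.22 (SE 0.93, adjusted p = 0.0986, edgeR). It passed in DESeq2 (adjusted p = 7.62e-05), in the fit over all 12 libraries (adjusted p = 0.0145) and with limma on the rlog values (adjusted p = 0.0373).

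The other subunits of the receptor were chosen for comparison after their values were seen. *Chrnb1*, the β1 subunit, had TPM close to those of *Chrna1* in WT mTEC, so that the ratio of *Chrna1* to *Chrnb1* was 0.854, 0.838 and 1.1 in the 3 libraries. In Aβ0/0 mTEC the ratio was 0.252, 0.729 and 0.219, under every WT value, and it was not tested. *Chrnb1* itself was at 13.0, 10.3 and 7.12 TPM in WT mTEC and at 14.0, 8.76 and 12.3 TPM in Aβ0/0 mTEC. Both the fetal γ subunit *Chrng* and the adult ε subunit *Chrne* were present in all WT mTEC libraries, with *Chrng* at 5.56, 3.61 and 2.81 TPM and *Chrne* at 7.25, 5.69 and 5.58 TPM. In Aβ0/0 mTEC, *Chrng* was at 1.77, 0.145 and 7.23 TPM and *Chrne* at 3.25, 0.0876 and 3.12 TPM. The δ subunit *Chrnd* was at 4.17, 3.76 and 2.0 TPM in WT mTEC and at 1.79, 0.0126 and 8.81 TPM in Aβ0/0 mTEC, where replicate 3 lay above every WT library. Each Aβ0/0 library was thus under each WT library for *Chrne* and not for *Chrng* or *Chrnd*, and none of the 3 passed the threshold (adjusted p = 0.605, 0.87 and 0.877, edgeR).

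*Ckm* (ENSMUSG00000030399, chr7:19404776-19422841, forward strand) encodes the muscle creatine kinase, which buffers ATP in contracting fibers. It was at 39.6, 33.7 and 22.1 CPM in WT mTEC and at 19.4, 37.8 and 39.4 CPM in Aβ0/0 mTEC, and the genotypes overlapped. The cTEC values were 0.123, 0.122 and 0.519 CPM in WT and 0.0339, 0.0908 and 0.165 CPM in Aβ0/0, from 1 to 13 counts a library. In mTEC the log2 fold change between genotypes was -0.03 (SE 0.37, 95% interval -0.9 to 0.84, adjusted p = 0.988, edgeR). Between subsets *Ckm* was higher in mTEC by 6.97 on the log2 scale in WT (SE 0.69, adjusted p = 0.000657) and by 8.29 in Aβ0/0 (SE 0.91, adjusted p = 0.00445, edgeR).

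*Acta1* (ENSMUSG00000031972, chr8:123891769-123894751, reverse strand) and *Actc1* (ENSMUSG00000068614, chr2:114047282-114053548, reverse strand) encode the sarcomeric α-actins of skeletal muscle and heart, the main proteins of the thin filament. *Acta1* was at 79.9, 129 and 79.5 CPM in WT mTEC and at 73, 106 and 101 CPM in Aβ0/0 mTEC, whereas cTEC libraries held between 0 and 5 counts in WT and between 3 and 8 in Aβ0/0. *Actc1* was at 57.5, 48.3 and 45.2 CPM in WT mTEC. In Aβ0/0 mTEC it was at 11.1, 74.7 and 80.8 CPM, so that replicate 1 lay under and the other two above every WT library. No cTEC library held more than 2 counts of *Actc1*. Pooled over 3 libraries, mTEC exceeded cTEC in WT 1336 times for *Acta1* (95% counting interval 616 to 3657) and 1019.6 times for *Actc1* (398 to 3744). Of the 6 *Acta1* counts in WT cTEC 5 came from replicate 3, and without it the ratio was 5561 over a single count. In Aβ0/0 the ratios were 655 (393 to 1208) and 2775 (768 to 22921), the latter over 2 counts and at 1847 without cTEC replicate 2. The log2 fold changes between subsets were 10.27 for *Acta1* and 9.88 for *Actc1* in WT (adjusted p = 0.000226 and 8.22e-05, edgeR) and 9.33 and 11.13 in Aβ0/0 (adjusted p = 0.000943 and 0.00445). In both genotypes *Actc1* passed the filter on low counts through mTEC alone, the group where it is high.

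Between genotypes in mTEC, *Acta1* had a log2 fold change of 0.03 (SE 0.26, 95% interval -0.59 to 0.64, adjusted p = 0.985, edgeR). This is the narrowest interval of the 10 genes. *Actc1* had a log2 fold change of -0.15 (SE 0.63, 95% interval -1.65 to 1.35, adjusted p = 0.958). The TPM ratio of the skeletal to the cardiac actin was 1.44, 2.75 and 1.84 in WT mTEC. It was 6.77 in Aβ0/0 replicate 1 and 1.44 and 1.27 in replicates 2 and 3, so that 1 library set the group apart.

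*Tnnt2* (ENSMUSG00000026414, chr1:135836354-135852260, forward strand) and *Tnnt3* (ENSMUSG00000061723, chr7:142498836-142516009, forward strand) encode the troponin T of heart and of fast skeletal muscle, the subunit that ties the troponin complex to tropomyosin. *Tnnt2* was at 17.3, 19 and 15.2 CPM in WT mTEC and at 20.9, 11.5 and 14.3 CPM in Aβ0/0 mTEC, with the genotypes overlapping (log2 fold change 0.11, SE 0.39, adjusted p = 0.945, edgeR). Its cTEC values of 2.1, 4.57 and 0.519 CPM in WT and 5.5, 2.57 and 8.82 CPM in Aβ0/0 overlapped between the genotypes as well. *Tnnt2* was higher in mTEC than in cTEC in WT, by 2.83 on the log2 scale (SE 0.74, adjusted p = 0.0242, edgeR), and in Aβ0/0 the difference was 1.47 (SE 0.78, adjusted p = 0.393). The WT call was lost without cTEC replicate 1 (adjusted p = 0.0684), without mTEC replicate 1, 2 or 3 (adjusted p = 0.085, 0.0868 and 0.0666) and over protein-coding transcripts alone (adjusted p = 0.1).

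*Tnnt3* was at 4.94, 16.1 and 6.81 CPM in WT mTEC and at 8.35, 7.66 and 0 CPM in Aβ0/0 mTEC. Replicate 3 of Aβ0/0 held no count of it, while the other two lay within the WT range. The genotype difference in mTEC was 0.77 on the log2 scale (SE 1.56, 95% interval -2.92 to 4.47, adjusted p = 0.899, edgeR), a wide interval in both directions. In WT it was higher in mTEC than in cTEC by 4.98 (SE 1.41, adjusted p = 0.0339, edgeR). This call was lost in the fit over all 12 libraries (adjusted p = 0.135), with the pool as a block (adjusted p = 0.0557), without cTEC replicate 1 (adjusted p = 0.0732) and without mTEC replicate 1, 2 or 3 (adjusted p = 0.0736, 0.139 and 0.081).

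*Myh6* (ENSMUSG00000040752, chr14:54941921-54966927) and *Myh7* (ENSMUSG00000053093, chr14:54970684-54994626) lie side by side on the reverse strand and encode the cardiac myosin heavy chains α and β, the motors of the thick filament. Their transcripts share sequence: 30.65% of the 31-mers of *Myh6* also occur in *Myh7*, so reads may have been divided between them and both values are uncertain. *Myh6* was at 1.66, 1.48 and 1.13 CPM in WT mTEC. In Aβ0/0 mTEC it was at 0, 3.39 and 0.98 CPM, and 1 count in all was found in the 6 cTEC libraries. *Myh7* was at 5.28, 1.45 and 1.6 CPM in WT mTEC and at 2.08, 0.0713 and 1.09 CPM in Aβ0/0 mTEC, and the genotypes overlapped for both genes. *Myh6* in WT mTEC was at least 12.8-fold higher than in WT cTEC, taking 3 counts per library as the limit of a library with none. The difference passed the test (adjusted p = 0.00632, edgeR), although not with the pool as a block (adjusted p = 0.0522). With no count in WT cTEC, *Myh6* passed the filter on low counts through mTEC alone. For *Myh7* the same difference was 3.02 on the log2 scale (SE 1.1, adjusted p = 0.0824, edgeR). It passed without cTEC replicate 3 (adjusted p = 0.0355), in DESeq2 (adjusted p = 0.0118) and over protein-coding transcripts alone (adjusted p = 0.0114), of which WT cTEC held none, so that this test too rests on a group at 0.

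*Ttn* (ENSMUSG00000051747, chr2:76703980-76982547, reverse strand) encodes titin, the giant spring that spans the sarcomere from Z disc to M line. It was at 69.4, 55.6 and 39.1 CPM in WT mTEC and at 77.9, 118 and 149 CPM in Aβ0/0 mTEC. All Aβ0/0 libraries lay above all WT libraries, which makes *Ttn* the only one of the 10 genes with that order in mTEC. The same order was found in cTEC, with 1.32, 0.0305 and 1.36 CPM in WT and 1.8, 3.42 and 8.26 CPM in Aβ0/0. In mTEC the log2 fold change was -1.09 (SE 0.31, 95% interval -1.83 to -0.35) and did not pass the threshold after adjustment (adjusted p = 0.128, edgeR). It passed in DESeq2 (log2 fold change -1.08, adjusted p = 0.0337) and without Aβ0/0 replicate 1 (-1.3, adjusted p = 0.041). In cTEC it was -2.28 (SE 1.42, adjusted p = 1.0, edgeR). The 12 thymocyte markers had the same order in cTEC, at sums of 358 to 610.4 CPM in WT and 706 to 1052 CPM in Aβ0/0, and their part in the *Ttn* values was not tested. Between subsets, *Ttn* was higher in mTEC by 5.95 in WT (SE 0.93, adjusted p = 0.00381) and by 4.68 in Aβ0/0 (SE 0.62, adjusted p = 0.00774, edgeR).

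*Mb* (ENSMUSG00000018893, chr15:77015487-77050670, reverse strand) encodes myoglobin, the oxygen store of red muscle fibers and heart. It was at 5.79, 5.65 and 5.68 CPM in WT mTEC, the most even of the 10 genes, and at 2.08, 0 and 6.93 CPM in Aβ0/0 mTEC. Its cTEC values were 0.864, 1.07 and 3.87 CPM for WT, and 1.46, 0 and 0 CPM for Aβ0/0. Its genotype difference in mTEC was 0.9 on the log2 scale (SE 1.59, 95% interval -2.88 to 4.67, adjusted p = 0.882, edgeR). The difference between subsets was 1.56 in WT (SE 0.75, adjusted p = 0.174, edgeR). It passed without cTEC replicate 3, which held the highest cTEC value (log2 fold change 2.55, adjusted p = 0.0102), and with limma on the rlog values (adjusted p = 0.0404). *Mb* overlaps *Apol6* on the opposite strand, *Acta1* overlaps *Gm20388* and *Myh7* overlaps *Gm17428*, and since the kit does not mark strand, reads of such partners cannot be told apart where they overlap.

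The first comparison asked whether these genes were higher in medullary than in cortical epithelium. In WT, 8 of the 10 genes were higher in mTEC by the test (*Acta1*, *Actc1*, *Myh6*, *Ckm*, *Ttn*, *Tnnt3*, *Chrna1* and *Tnnt2*), while 18.0% of all 18667 genes tested were called in that direction, 8.81% in the other and 26.8% in either. With the pool of mice as a block 6 of the 10 were called, and 13.5% of all genes in that direction. For all 10 genes, each mTEC library of WT lay above each cTEC library, an order found in 30.0% of the genes tested. The median log2 fold change of the 10 was 5.46, against 0.06 over all genes. In Aβ0/0, 7 of the 10 genes had counts enough to be tested, and 4 were higher in mTEC (*Acta1*, *Ckm*, *Actc1* and *Ttn*) against 3.45% of 15687 genes, with 5.6% called in either direction. At an unadjusted p under 0.05 it was 5 of the 7, against 17.8% of genes, and DESeq2 called 6 of the 10, against 7.02% of genes in that direction. *Myh6*, *Myh7* and *Tnnt3* did not pass the filter on low counts in Aβ0/0, and their mTEC and cTEC libraries overlapped. In 6 of the 10 genes each Aβ0/0 mTEC library lay above each cTEC library, an order found in 15.1% of the genes tested. In WT, *Actc1* and *Myh6* had at most 3 counts in each cTEC library and passed the filter on low counts through mTEC alone. The same held for *Actc1* in Aβ0/0. The counts of 8 and 4 are therefore no support for a difference from all genes, and describe the genes that passed.

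The second comparison asked whether the loss of MHC class II went with a change of these transcripts in mTEC. None of the 10 genes passed the threshold in edgeR, while 5.66% of 18636 genes did, 5.32% with higher values in WT and 0.338% with higher values in Aβ0/0. That share rests on few libraries: without WT replicate 1, 2 or 3 no gene was called, and without Aβ0/0 replicate 1, 2 or 3 the number of calls was 2377, 44 and 13 in place of 1054. Of the 10, 1 (*Ttn*) had an unadjusted p under 0.05, against 15.3% of genes, and DESeq2 called the same gene with higher values in Aβ0/0, with 9.0% of all genes called. The log2 fold changes ran from -1.09 for *Ttn* to 1.32 for *Myh7*, with a median of 0.07 against 0.0 over all genes. *Chrna1* was the only one of the 10 with no Aβ0/0 library above a WT library, by a margin of 27.8 against 27.76 CPM, too small to read as a separation. The order WT above Aβ0/0 was found in 18.7% of genes, and for *Ttn* the reverse order was found in 7.69%. The summed CPM of the 10 genes lay between 244 and 342 in WT mTEC and between 226 and 404 in Aβ0/0 mTEC. In such bulk samples fewer cells that transcribe a gene and less RNA per cell cannot be told apart. In cTEC, 4 of the 10 genes were tested and none was called, against 0.0194% of 15432 genes, and no gene of the 4 had an unadjusted p under 0.05, against 2.16% of genes. *Ttn* was without overlap there, with all Aβ0/0 libraries above WT, an order found in 3.5% of genes and its reverse in 4.35%. No difference of the genotype effect between mTEC and cTEC passed the threshold for the 10 genes in the interaction term (adjusted p from 0.888 to 1.0, edgeR), where 0.0103% of 19461 genes were called and 6.9% had an unadjusted p under 0.05.

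**Figure D2:**
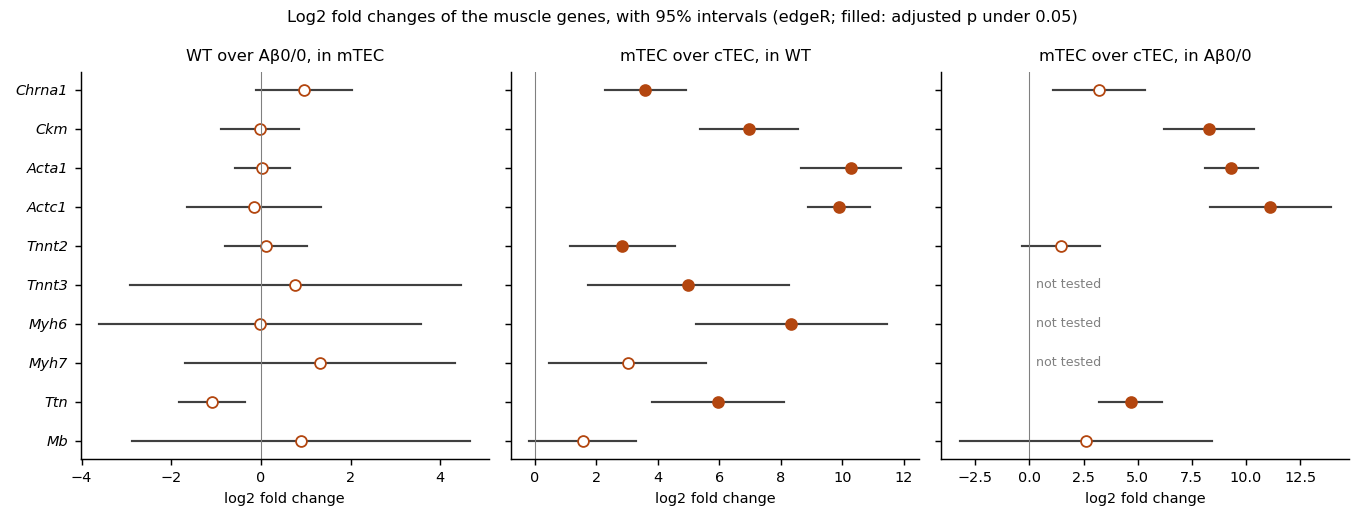
Log2 fold changes with 95% intervals (edgeR) of WT over Aβ0/0 in mTEC, of mTEC over cTEC in WT and of mTEC over cTEC in Aβ0/0, filled where the adjusted p was under 0.05. No gene is filled in the genotype comparison, 8 are in WT and 4 in Aβ0/0, and the intervals of *Tnnt3*, *Myh6*, *Myh7* and *Mb* between genotypes are the widest.

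Libraries of a group spread more widely in Aβ0/0 mTEC than in WT mTEC, for these genes and for most others. In mTEC, 9 of the 10 genes had a larger coefficient of variation in Aβ0/0 than in WT, *Acta1* being the exception (29.4% in WT and 18.9% in Aβ0/0). For *Mb* it was 1.37% in WT and 118% in Aβ0/0, for *Chrna1* 10.3% and 62.6%, and for *Actc1* 12.7% and 69.5%. Over all genes tested the coefficient was larger in Aβ0/0 in 87.7%, so the 10 genes were close to the background in this. All 10 genes had counts in each of the 3 WT mTEC libraries. By contrast 3 of the 10 had a library with no count in Aβ0/0 mTEC, each in another pool: *Myh6* in replicate 1, *Mb* in replicate 2 and *Tnnt3* in replicate 3. *Myh6* and *Mb* were at 3.39 and 6.93 CPM in other libraries of the same group, above every WT library. Of all genes tested, 19.0% had such an empty Aβ0/0 mTEC library, and 13.1% of those within the range of mean CPM of the 10. The part of the number of sorted cells in this spread was not tested.

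The transcripts behind the counts are given as a description, with no test. In mTEC, 65.3% of the *Ckm* counts in WT and 68.8% in Aβ0/0 came from Ckm-201, the shorter coding transcript. In cTEC all of the few *Ckm* counts, 20.2 in WT and 10.0 in Aβ0/0, came from Ckm-203, a coding transcript of 2742 bases against 1235 for Ckm-201. All *Myh7* counts in cTEC came from the retained-intron transcript Myh7-202, and of the 32 *Tnnt3* counts 1.4 came from protein-coding transcripts. In mTEC, protein-coding transcripts held 80.3% of the *Myh7* counts in WT and 85.9% in Aβ0/0. They held 68.3% and 80.0% of the *Tnnt3* counts. For these 3 genes the transcript with most counts in mTEC had none in cTEC.

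*Ttn* counts were spread over many transcripts, as its exons are shared. The transcript Ttn-203 held 50.9% of the counts in WT mTEC and 9.7% in Aβ0/0 mTEC, with 798.5, 823.3 and 776.7 estimated counts in the WT libraries and 419.5, 194.7 and 284.8 in Aβ0/0. The transcript Ttn-201 held 27.3% and 58.1%, with 598.7, 690.3 and 0.0 counts in WT and 1359.3, 1747.3 and 2302.0 in Aβ0/0. These transcripts, of 25 for the gene, were chosen after their values were seen, and the estimates also moved between transcripts within a group. Ttn-205 held 64.5, 50.8 and 303.9 counts in WT mTEC and 0.0, 1068.3 and 7.0 in Aβ0/0 mTEC. These shares rest on how reads were divided among transcripts with the same exons, and they were not tested.

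**Figure D3:**
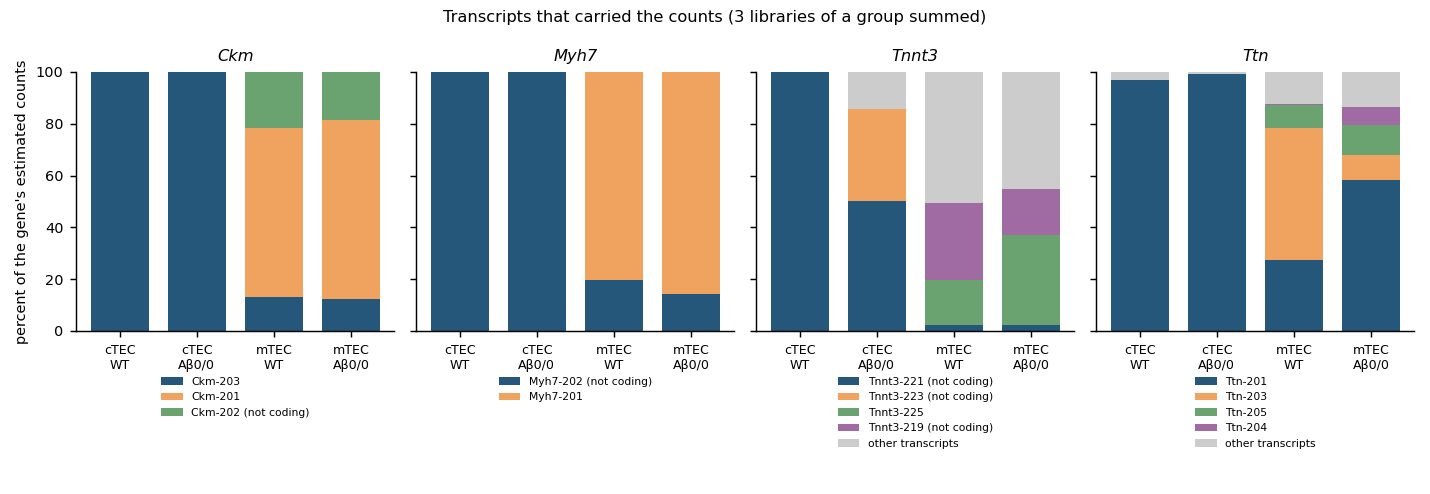
Percent of the estimated counts of *Ckm*, *Myh7*, *Tnnt3* and *Ttn* that each transcript held in the 4 groups, the 3 libraries of a group summed. In cTEC, Ckm-203 and Myh7-202 held all counts of their genes, and Ttn-201 held 27.3% in WT mTEC and 58.1% in Aβ0/0 mTEC.

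The transcription factors that direct skeletal myogenesis had unlike levels. *Myog*, which drives terminal differentiation, was at 115, 90.4 and 93.6 CPM in WT mTEC and at 161, 117 and 106 CPM in Aβ0/0 mTEC, with a log2 fold change of -0.39 (SE 0.23, adjusted p = 0.525, edgeR). In cTEC no library was above 1.69 CPM. *Myog* was higher in mTEC by 7.41 on the log2 scale in WT (SE 1.12, adjusted p = 0.00331) and by 11.87 in Aβ0/0 (SE 0.64, adjusted p = 0.000943, edgeR). *Myod1*, the determination factor, and *Pax7*, the factor of muscle stem cells, were found in all 3 WT mTEC libraries and in no other library. *Myod1* was at 0.682, 1.06 and 1.19 CPM and *Pax7* at 0.767, 2.6 and 1.44 CPM there. Against a limit of 3 counts per library, they were at least 8.74-fold and 14.3-fold higher in WT mTEC. Both were called between genotypes (adjusted p = 0.0352 and 0.036, edgeR), but with no count in Aβ0/0 they passed the filter on low counts through WT alone, the group where they are high. Without the filter the adjusted p was 0.0761 and 0.0738. Both calls were also lost in the fit over all 12 libraries (0.0959 each), without any one of the WT libraries (adjusted p up to 0.138), without Aβ0/0 replicate 2 (0.0683 each) or replicate 3 (0.0828 each) and with the replicate number as a block (0.23 each). *Myf6* was at 2.56, 2.51 and 3.2 CPM in WT mTEC and at 0.885, 5.38 and 0 CPM in Aβ0/0 mTEC, and *Myf5* held at most 8 counts in any library.

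**Figure D4:**
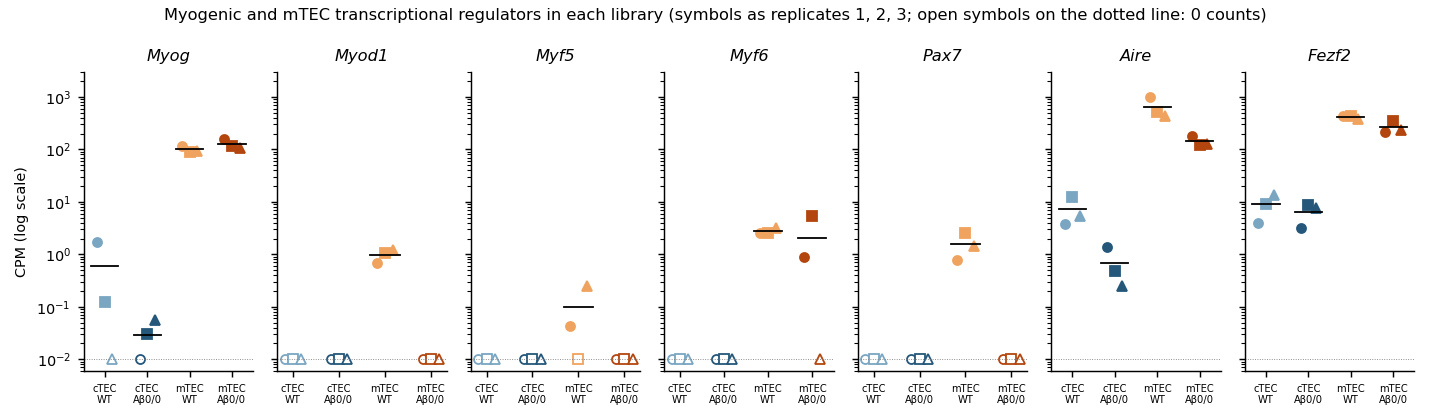
CPM on a log axis of the myogenic factors *Myog*, *Myod1*, *Myf5*, *Myf6* and *Pax7* and of *Aire* and *Fezf2* in every library, with open symbols for libraries with 0 counts. *Myog* stays between 90.4 and 161 CPM in the 6 mTEC libraries, whereas *Myod1* and *Pax7* have counts in the 3 WT mTEC libraries alone.

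The regulators of self-antigen expression were measured in the same libraries. *Aire* was at 1002, 526 and 443 CPM in WT mTEC and at 180, 121 and 129 CPM in Aβ0/0 mTEC, a log2 fold change of 2.17 (SE 0.36, adjusted p = 0.0352, edgeR). This call was lost without WT replicate 1, 2 or 3 (adjusted p = 0.138, 0.129 and 0.129), without Aβ0/0 replicate 2 or 3 (0.0672 and 0.084), without the filter (0.061), in the fit over all 12 libraries (0.0959) and with the replicate number as a block (0.102). *Fezf2* was at 438, 427 and 373 CPM in WT mTEC and at 215, 348 and 231 CPM in Aβ0/0 mTEC, a log2 fold change of 0.63 (SE 0.21, adjusted p = 0.208). Both had all WT libraries above all Aβ0/0 libraries, an order found in 18.7% of genes.

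A wider set of 111 muscle genes was listed by function to place the 10 genes. Of 105 tested in mTEC, 14 were higher in WT and 1 was higher in Aβ0/0, together 14.3%, against 5.32% and 0.338% of all genes in these directions and 5.66% in either. Their median log2 fold change was 0.81 against 0.0 over all genes. Of the 14, 12 had at most 3 counts in each Aβ0/0 mTEC library and passed the filter through WT alone, so their count is no support for a difference from all genes. In all, 11 of the 111 genes had more than 3 counts in each WT mTEC library and 0 in all Aβ0/0 mTEC libraries: *Myod1*, *Pax7*, *Cacng1*, *Myl2*, *Lmod3*, *Myoz1*, *Csrp3*, *Xirp1*, *Smpx*, *Ckmt2* and *Nppb*. They were 10.3% of the 107 with more than 3 counts in each WT library, while 1131 of 19388 such genes (5.83%) over all genes had no count in Aβ0/0 mTEC. The calls rest on few libraries: none of the 111 was called without any one of the WT replicates 1, 2 and 3 or without Aβ0/0 replicate 3, 1 without Aβ0/0 replicate 2 (0.225% of all genes) and 31 without Aβ0/0 replicate 1 (12% of all genes). In the fit over all 12 libraries and without the filter none was called, and DESeq2 called 25, with 9.0% of all 27301 genes.

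By function, beside the same 5.32% and 0.338% of all genes, 7 of 45 sarcomere genes were higher in WT mTEC and 1 was higher in Aβ0/0. *Csrp3*, a Z disc protein of the heart, was at 15, 4.05 and 4.67 CPM in WT and in no Aβ0/0 mTEC library, at least 70.7-fold higher (adjusted p = 0.0352, edgeR) and at least 39.0-fold without WT replicate 1. *Csrp3*, *Myoz1* and *Lmod3*, like *Cacng1*, had no count in Aβ0/0 mTEC and were tested through WT alone. Without the filter their adjusted p was 0.0736, 0.0738 and 0.0795, and that of *Cacng1* was 0.0736. The ventricular light chain *Myl3* was called as well (adjusted p = 0.0352), at 3.79, 6.31 and 4.02 CPM in WT and 0.115, 0.214 and 0.188 CPM in Aβ0/0. *Tpm1*, a tropomyosin that non-muscle cells also express, was the sarcomere gene with the opposite sign, at 236, 283 and 262 CPM in WT and 386, 511 and 444 CPM in Aβ0/0 (log2 fold change -0.8, SE 0.17, adjusted p = 0.0413, edgeR), and was chosen for mention after its values were seen. Of 26 endplate and excitation genes 2 were called: *Cacng1*, a subunit of the skeletal muscle calcium channel, at 2.81, 4.89 and 2.92 CPM in WT and 0 in Aβ0/0, and *Pln*, the phospholamban that restrains the calcium pump of the heart, at 6.52, 3.35 and 3.98 CPM in WT and at most 0.0713 in Aβ0/0. The pooled ratio of *Pln* was 119 (95% counting interval 40.3 to 578) over 3 counts in Aβ0/0, and 232 without Aβ0/0 replicate 2. Of 13 energy metabolism genes *Ckmt2* and *Fabp3* were called, and of 9 cardiac regulators and hormones *Nppb*, the B-type natriuretic peptide of the heart, was called. *Fabp3*, the fatty acid binding protein of heart and muscle, was at 17.6, 16.3 and 14.3 CPM in WT mTEC and at 0.462, 0 and 0.0754 CPM in Aβ0/0, but 35.18% of its 31-mers also occur in the pseudogene *Fabp3-ps1*, so the value is uncertain.

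Between subsets in WT, 54 of 104 genes of these lists were higher in mTEC and 2 were higher in cTEC, together 53.8%, where 18.0% and 8.81% of all 18667 genes were called in these directions. Their median log2 difference was 3.2. The fusion factors *Mymk* and *Mymx* were among them, with 1 count and 0 counts in the 3 cTEC libraries and means of 9.25 and 6.51 CPM in mTEC (adjusted p = 0.00121 and 0.00314, edgeR). Also called were the sarcomere genes *Myl1*, *Mybpc3*, *Neb* and *Fbxo32* and the cardiac factors *Gata4* and *Tbx5* (adjusted p = 0.0141 and 0.0127). Of the 54 genes, 20 had at most 3 counts in each WT cTEC library, 13 of them (*Mymx* and *Mybpc3* included) no count at all, and these passed the filter on low counts through mTEC, the group where they are high. The count of 54 is therefore no support for a difference from all genes. Without WT mTEC replicate 1, 37 genes were called, with 17.7% of all genes, and *Gata4* and *Tbx5* were no longer among them (adjusted p = 0.0724 and 0.0651). *Tbx5* was also lost without mTEC replicate 2 (adjusted p = 0.0506). In the fit over all 12 libraries 36 were called, with 14.2% of all genes, and *Gata4* and *Tbx5* were lost there as well (adjusted p = 0.0798 and 0.0688). In Aβ0/0, 15 of 70 genes (21.4%) were higher in mTEC against 3.45% of 15687 genes, *Myog*, *Mymx*, *Colq*, *Clcn1*, *Myl1*, *Mybph*, *Tnni1*, *Trim63* and *Pvalb* among them, with a median of 2.0. Of these 15, 6 (*Clcn1*, *Mybph*, *Mymx*, *Myog*, *Tnni1* and *Tnni2*) had at most 3 counts in each Aβ0/0 cTEC library and were tested through mTEC alone, so the count of 15 is no support for a difference from all genes. The values of *Mybph* and *Myl1* are uncertain too, since 46.35% and 14.47% of their 31-mers also occur in *Adora1* and *Mylf-ps*. Leaving out any one Aβ0/0 library left between 2 and 9 of these lists' genes called (2.01% to 2.79% of all genes), DESeq2 called 31 (11.6% of all genes) and the fit with the pool as a block 8 (4.02%). *Colq*, the collagen tail of the endplate esterase, at 28.0 to 47.6 CPM in Aβ0/0 cTEC and 165 to 346 CPM in Aβ0/0 mTEC, passed in every one of the 6 fits without a library (highest adjusted p = 0.0361, edgeR).

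**Figure D5:**
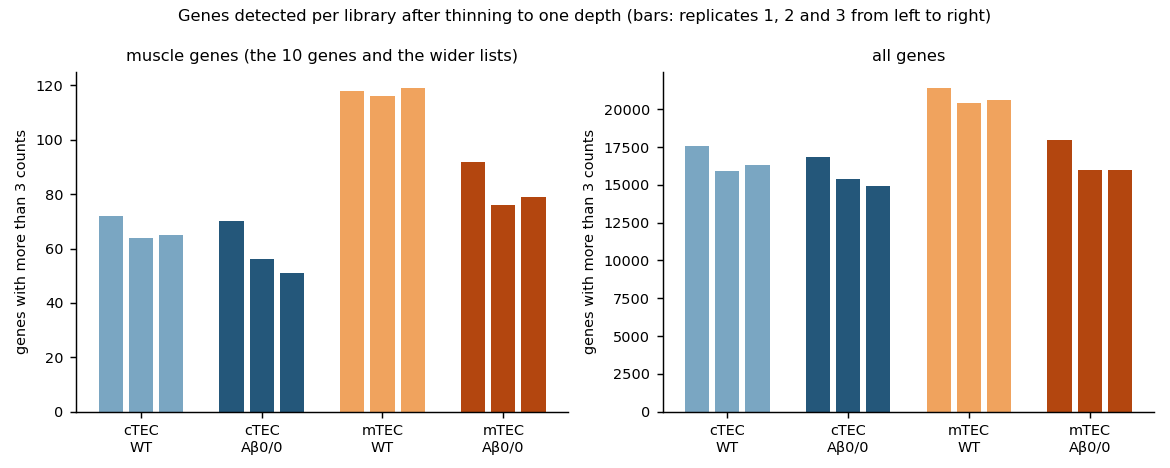
Number of the 121 muscle genes (left) and of all genes (right) with more than 3 counts in each library after thinning all libraries to the same total, replicates 1 to 3 from left to right. In mTEC the WT libraries hold 116 to 119 of the muscle genes and the Aβ0/0 libraries 76 to 92, and both panels show the WT mTEC libraries above all others.

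With all libraries thinned to 21605226 counts, between 116 and 119 of the 121 muscle genes (the 10 and the wider lists) had more than 3 counts in WT mTEC. In Aβ0/0 mTEC it was 92, 76 and 79, and in cTEC it was between 64 and 72 in WT and between 51 and 70 in Aβ0/0. Of the 10 genes themselves, all were over 3 counts in every WT mTEC library and 9, 8 and 9 in the Aβ0/0 mTEC libraries. The number of all genes over 3 counts moved in the same way, between 20440 and 21401 in WT mTEC and between 15958 and 17949 in Aβ0/0 mTEC.

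The genes whose profiles over the 12 libraries were most like those of the 3 most abundant members by CPM, *Acta1*, *Ttn* and *Actc1*, are given as a description, since all correlations contain the difference between subsets. For *Acta1* these were *Matn1*, *Ckm* and *Extl1* (Pearson's r of log2(CPM + 0.5) 0.998, 0.995 and 0.992 among 19460 genes). For *Actc1* they were *Ccdc155*, *Fmn2* and *Adm2* (0.997, 0.995 and 0.991), and *Ckm* ranked 5 and *Acta1* 11. For *Ttn* they were *Ms4a10*, *Il5ra* and *Tekt5* (0.971, 0.971 and 0.969). *Ckm*, *Acta1* and *Actc1* thus ranked close to each other, while *Chrna1* ranked 415 and *Mb* 5678 for *Acta1*. Among the regulators, *Fezf2* ranked 25, *Myog* 31 and *Aire* 410 for *Acta1*, and *Fezf2* ranked 44, *Myog* 85 and *Aire* 391 for *Actc1*. For *Ttn*, *Myog* ranked 115, *Fezf2* 203 and *Aire* 1224.

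Markers of other cells were summed in the same libraries. The 11 smooth muscle and pericyte genes summed to between 1160.1 and 1560.2 CPM in WT mTEC and between 1714 and 2598 CPM in Aβ0/0 mTEC, without overlap. In cTEC they summed to between 794 and 1639.6 CPM, and no gene of the list was at 0 in all libraries of a mTEC group. Gene by gene, 2 of the 11 had all Aβ0/0 mTEC libraries above WT, an order found in 7.69% of all genes, and 9 overlapped. None of the 11 passed the test between genotypes in mTEC, against 5.66% of all genes. The 9 fibroblast genes summed to between 251 and 334 CPM in WT mTEC, between 296 and 633 CPM in Aβ0/0 mTEC and between 2374 and 3246 CPM in cTEC. *Dcn* alone averaged 2411 CPM in WT cTEC and 2441 CPM in Aβ0/0 cTEC. The 8 endothelial genes summed to between 48.4 and 82.5 CPM in WT mTEC and between 26.4 and 54.1 CPM in Aβ0/0 mTEC, where *Emcn* was at 0, and the 12 thymocyte genes to between 92.4 and 205 and between 69.3 and 165 CPM. The 10 cTEC markers summed to at most 3457 CPM in mTEC and to at least 12481 CPM in cTEC. The 11 mTEC markers summed to between 14214 and 18643 CPM in WT mTEC, to between 15561 and 29593 CPM in Aβ0/0 mTEC and to at most 4244 CPM in cTEC. Gene by gene, 7 of the 11 had a log2 fold change toward WT in mTEC. The test called 2 higher in WT and 0 higher in Aβ0/0, against 5.32% and 0.338% of all genes. The part of these cells in the muscle transcripts was not tested.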

How the data were processed

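RNA of sorted TEC was amplified by the authors with a SMART-Seq v4 kit and sequenced as paired reads of 50 bases. Per the labels, bcl2fastq 2.20.0, Trim Galore, kallisto 0.43 and DESeq2 were used with build mm10. The deposited estimated counts and TPM were made by the authors with kallisto per transcript, and the deposited log2 values are rlog values made with DESeq2 over 12 libraries. Of 109282 transcripts, 107987 matched GENCODE M21 (GRCm38) and the rest, 0.45% to 0.512% of the counts, were left out. Estimated counts were summed per gene and rounded.

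The main test was edgeR's quasi-likelihood F test (edgeR 4.0.16 in R 4.3.3, robust, TMM, filterByExpr) with Benjamini-Hochberg adjustment over all genes tested and a threshold of 0.05. DESeq2 1.42.0, the tool of the study, and limma 3.58.1 on the rlog values served as alternatives. Other alternatives were RLE size factors, no filter, one fit over 12 libraries, the replicate number as a block, protein-coding transcripts alone and leaving out each library. Shared sequence was counted as 31-mers common to transcripts of different genes. Thinning used a fixed seed. Tables were made in Python 3.11.15 (pandas 2.3.3, numpy 2.4.6). No 2 libraries held identical values. The fit was tested on simulated data.

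The study's yields list cTEC and mTEC of one sorting together, so a cTEC and a mTEC library that share genotype and number are likely to share a pool, although the labels do not say so. The main fits between subsets left this out, and the pool entered as a block in an alternative. Their deviations from the group means correlated at 0.258, 0.0248 and 0.116 in WT and at 0.267, 0.117 and 0.0425 in Aβ0/0. The labels do not say whether pools were independent sortings, and p-values measure the spread among them.

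The 10 genes and all lists were chosen with earlier results of these data known. Named were the 10 genes, *Myog*, *Myod1*, *Myf5*, *Myf6*, *Pax7*, *Aire* and *Fezf2*, up to 4 genes per list and comparison by smallest adjusted p, and the 3 genes most like each of the 3 most abundant members. Genes named beyond this rule (the receptor subunits, *Tpm1*, *Tnni2*, *Dcn*, *Emcn* and the genes at 0 in Aβ0/0 mTEC) were chosen after their values were seen.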

Additional observations from a re-analysis of the deposited data

How the results depend on the processing

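The limits are few libraries and, in cTEC, few counts. Between genotypes in mTEC none of the 10 genes was called, DESeq2 called 1 (*Ttn*), and leaving out a library gave 0 to 1. Of the wider muscle lists 15 were called, 25 by DESeq2, 0 without the filter, 0 in the fit over all 12 libraries and 0 with the replicate block, and 0 to 31 without a library. Between subsets in WT, 8 of the 10 were called and 6 to 10 without a library, where 17.7% to 38.1% of all genes were called, 38.1% in the fit that called 10. The wider lists had 56 calls, 36 in the fit over all 12 libraries and 37 to 71 without a library. In Aβ0/0, 4 of the 10 were called, 6 by DESeq2, and 4 in every fit without a library, while the wider lists had 15 calls, 31 by DESeq2, 8 with the block and 2 to 9 without a library. For the interaction the wider lists had 0 calls, 7 by DESeq2 (1.41% of all genes) and 16 with limma on rlog values (5.13%).

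The sign between genotypes in mTEC turned for *Ckm* on rlog values (0.09), for *Actc1* with the block (0.19) and on rlog values (0.3) and for *Myh6* with the block (1.04) and on rlog values (0.09). Without a library it ranged from -0.22 to 0.17 for *Acta1*, -0.63 to 0.23 for *Actc1*, -0.28 to 0.2 for *Ckm*, -0.61 to 1.51 for *Myh6*, -0.07 to 0.4 for *Tnnt2* and -0.19 to 2.58 for *Myf6*. In the interaction it turned for *Tnnt3* with the block (1.32), on rlog values (0.4) and over protein-coding transcripts (2.28) and for *Mb* on rlog values (0.16). There the ranges without a library were -0.14 to 1.01 for *Chrna1*, -0.14 to 0.61 for *Fezf2*, -7.88 to 0.47 for *Mb*, -0.19 to 2.63 for *Myf6*, -0.58 to 1.2 for *Myh7* and -2.28 to 2.19 for *Tnnt3*. The cause of these shifts was not tested.

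Across genotypes, the study lists WT and Aβ0/0 yields side by side under a replicate number without saying that they were sorted together, so whether numbers pair these libraries is not known. Deviations of same-numbered libraries correlated at 0.288, 0.114 and 0.0627 in mTEC and at 0.276, -0.0819 and 0.0325 in cTEC. With it as a block 0 of 18636 genes were called between genotypes in mTEC, in place of 1054.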
